A study of Rattus norvegicus with 4 samples.

Results

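The plasminogen activator system was followed here through 4 genes: Plau (urokinase), Plat (tissue plasminogen activator), Plaur (the urokinase receptor) and Serpine2 (protease nexin 1). They were found by gene name on a whole rat genome oligonucleotide array, where 25534 gene names had a usable probe. They were read by 5 of 41012 gene probes on 14 of 43379 gene spots. Serpine2 had 2 probes, Plau and Plaur had 1 probe and 1 spot each, and the single Plat probe was printed on 10 spots. The cells were rat hepatic stellate cells, liver pericytes that store retinoids and turn into collagen-making myofibroblasts after injury. One group received an siRNA that targets endoglin (Eng, a co-receptor for TGF-beta and BMP ligands), a second group was left untreated, and the comparison sample on every array was RNA of cells given a control siRNA. Each of the 2 groups had 2 arrays, 1 with RNA of 1 animal and 1 with RNA pooled from 3 animals. The test RNA carried Cy5 and the control siRNA RNA carried Cy3 on all 4 arrays, so a dye effect and a difference from control siRNA cells cannot be told apart; a dye effect common to all arrays cancels between endoglin siRNA and untreated cells. The strain, sex and age of the animals, the siRNA sequences and the times in culture and from transfection to harvest were not given in the sources used here. The labels also leave unsaid whether the single animal was in the pool and whether 1 control RNA served several arrays. The p-values below measure the spread between these arrays, which may in part be technical.

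Urokinase and tissue plasminogen activator are serine proteases that cut the circulating zymogen plasminogen into plasmin, the protease that dissolves fibrin and degrades parts of the extracellular matrix. The urokinase receptor, a protein held on the membrane by a lipid anchor, gathers urokinase at the cell surface, and serpins such as protease nexin 1 trap the activators in complexes that are then taken up by the cell. In the liver, plasmin can release TGF-beta from its latent complex and urokinase can activate hepatocyte growth factor, so this system borders on matrix turnover and on the pathway in which endoglin acts.

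The 250 bases before the annotated start of 3 of the 4 genes are shown because Plau and Plaur differed together between the RNA sources, as described further on, while Serpine2 did not. The sequences are those of RefSeq on build GRCr8, and the fourth gene, Plat, is only named here. Capitals mark matches on either strand to 4 words, chosen after these sequences had been read: the AP-1 word TGANTCA, the GC box GGGCGG, the Smad palindrome GTCTAGAC and the PU.1 core GAGGAA.
Plau, chr15:3511988-3512237, minus strand: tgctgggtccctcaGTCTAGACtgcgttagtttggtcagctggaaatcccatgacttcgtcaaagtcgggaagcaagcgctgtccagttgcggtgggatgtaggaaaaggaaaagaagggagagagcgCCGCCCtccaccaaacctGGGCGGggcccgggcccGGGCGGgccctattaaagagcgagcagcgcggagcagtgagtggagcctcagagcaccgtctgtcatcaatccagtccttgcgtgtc
Plaur, chr1:89181113-89181362, plus strand: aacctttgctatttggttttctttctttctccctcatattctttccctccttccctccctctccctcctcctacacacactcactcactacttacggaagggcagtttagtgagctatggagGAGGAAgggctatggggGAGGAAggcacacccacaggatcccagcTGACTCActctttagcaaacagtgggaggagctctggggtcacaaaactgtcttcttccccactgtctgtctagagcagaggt
Serpine2, chr9:88637203-88637452, minus strand: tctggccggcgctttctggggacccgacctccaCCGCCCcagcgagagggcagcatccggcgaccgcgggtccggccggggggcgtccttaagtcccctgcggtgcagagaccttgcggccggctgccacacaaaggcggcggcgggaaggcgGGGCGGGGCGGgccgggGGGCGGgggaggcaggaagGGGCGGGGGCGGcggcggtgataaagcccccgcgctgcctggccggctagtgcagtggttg
The Plau sequence had 3 GC boxes, 122, 104 and 87 bases before the start, and the Smad palindrome at 236 bases. That palindrome stood in 58 of 33469 promoter sequences of the same length (0.173%), the GC box in 30.5%. In Plaur there was 1 AP-1 word at 83 bases (a word found in 6.34% of promoters) and the PU.1 core occurred at 128 and 111 bases (in 23.3% of promoters). Serpine2 had 6 GC boxes, 2 of which share 1 base, in a sequence of 76.8% GC, against 60.0% in Plau, 51.2% in Plaur and a median of 51.2% over all promoters. None of the 4 words stood in both Plau and Plaur, while the GC box stood in both Plau and Serpine2. The words were chosen after the sequences were read, so this pattern does not bear on the grouping by RNA source. Because the words were picked from these sequences, the shares over all promoters do not measure how unusual a match is. A match describes the letters of the window and is not evidence of a bound site.

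The siRNA check and the libraries as a whole were as follows. The Eng ratio to control siRNA was -3.08 and -1.72 on the log2 scale in endoglin siRNA cells (1 animal, pool), against -0.36 and -0.42 in untreated cells, and the mean of -2.40 passed the test (limma adjusted p = 0.0042). Set against untreated cells, the Eng difference in endoglin siRNA cells was -2.02, which did not pass (adjusted p = 0.152 in limma). It passed without background correction (-2.11, adjusted p = 0.0444), with the background fitted without a few spots far below 0 (-2.09, adjusted p = 0.0335), with the RNA source as a block (0.00442) and without either endoglin siRNA array (0.00742 without 1 animal and 0.000259 without the pool, on the assumption that the array left varies like the untreated ones), and under no other setting tried, with adjusted p between 0.105 and 0.839. Across arrays and dyes, 61.9% to 93.3% of gene spots were well above background, and all 4 arrays lay on 1 slide and in 1 scan. Of 15 stellate cell markers all were measured, and 14 were well above background in more than 3 of the 8 channels; Gfap was so in 3. RNA of macrophage markers was present as well: 14 of 15 Kupffer cell and macrophage markers were measured, and all 14 had positive ratios in untreated cells, with a median of 0.89 and 6 past the test. Of all 29845 probes, 14731 had positive ratios in untreated cells, where 0.834% passed the test. In endoglin siRNA cells 12 of the 14 markers were positive, with a median of 0.16 and 1 past the test. There 17034 of all probes were positive and 8.28% passed. In bulk RNA, fewer cells of a type and less RNA per cell cannot be told apart.

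All 5 probes were well above background in all 8 channels and were tested, and no probe of the 4 genes passed an adjusted p of 0.05 in any of the 3 comparisons. In endoglin siRNA against control siRNA cells 0 of 5 probes passed, where 8.28% of the 29845 probes tested did; in untreated against control siRNA cells it was 0 of 5, where 0.834% did; and between endoglin siRNA and untreated cells 0 of 5, where 0.101% did (limma with Benjamini-Hochberg adjustment over all probes). With the RNA source as a block in the fit, 2 of 5 probes passed in endoglin siRNA against control siRNA cells, where 16.1% of all probes did: Plau (-0.24, adjusted p = 0.0292) and the brighter Serpine2 probe (0.23, adjusted p = 0.0387). In the other comparisons 0 of 5 passed with that block, where 4.83% and 1.3% of all probes did. At an unadjusted p under 0.05 the members numbered 2, 1 and 0, against 23.2%, 14% and 8.03% of all probes. Endoglin siRNA and untreated arrays were free of overlap for 0 of 5 probes, where they were so for 35.5% of all probes. The 3 comparisons share arrays, and each is read against control siRNA RNA. The mean ratios of Plau, Plat and Plaur in endoglin siRNA cells were all negative, between -0.27 and -0.22 after loess; with median centring in place of loess they were 0.01, 0.64 and 0.41, where the median of all probes was 0.32, and with scaling between arrays Plat was at 0.06. After loess Plau and Plaur were negative on both arrays, as were 28.5% of all probes. In untreated cells Plat was negative on both arrays, as were 33.2% of all probes. Both Serpine2 probes had positive means in both groups.

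**Figure D1:**
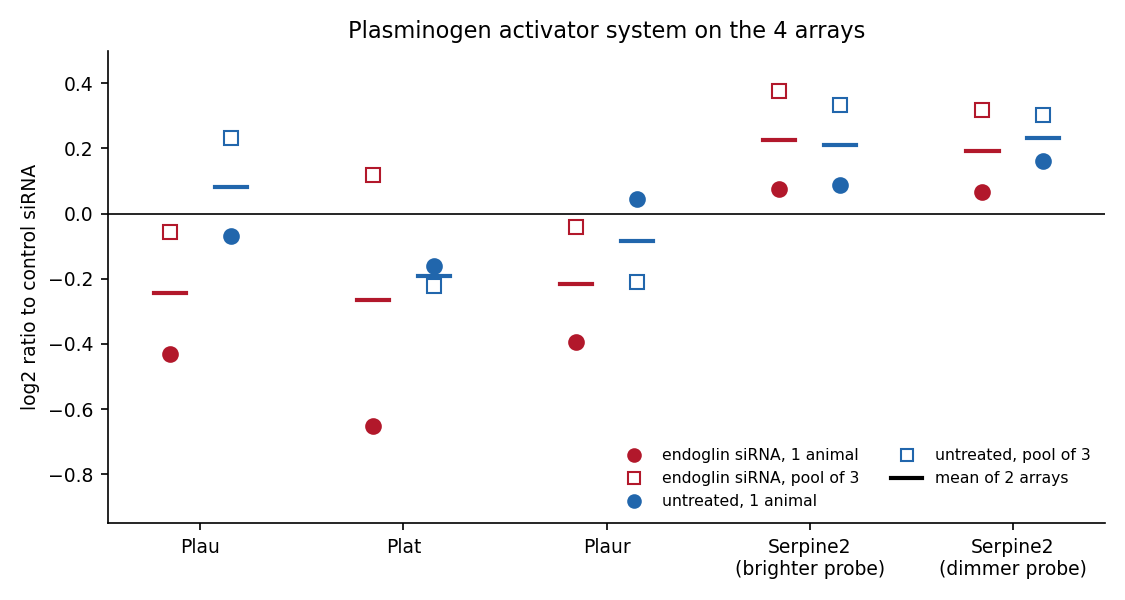
Log2 ratio to control siRNA (vertical axis) of each probe of the 4 genes, endoglin siRNA arrays in red left of untreated arrays in blue; filled circles are RNA of 1 animal, open squares the pool of 3 animals, bars the mean of 2 arrays. The 2 Serpine2 probes lie above 0 on all 4 arrays after loess (the untreated pool lies below 0 with median centring), and the 2 Plat values of endoglin siRNA cells, -0.65 and 0.12, lie farthest apart (those of the Serpine2 probes do with scaling between arrays).

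After loess, Plau had a lower mean in endoglin siRNA than in untreated cells, as had Plat (-0.07) and Plaur (-0.13). The Plau difference did not pass the test. Its probe maps to chr15:3680711-3680770 on the minus strand, in the coordinates of the scanner files, which name no build; the place of the probes within exons was not analysed here. The log2 ratio to control siRNA was -0.43 for 1 animal and -0.06 for the pool in endoglin siRNA cells, against -0.07 and 0.23 in untreated cells. Within each RNA source the endoglin siRNA value was the lower, although the 2 groups touched: the pooled endoglin siRNA value lay just above the lowest untreated one. The mean was -0.24 ± 0.11 (SE, n = 2 arrays; 1.18-fold lower, adjusted p = 0.221, and 0.0292 with the RNA source as a block) for endoglin siRNA against control siRNA and 0.08 ± 0.11 (adjusted p = 0.814) for untreated against control siRNA. The difference between endoglin siRNA and untreated cells was -0.33 ± 0.15, with a 95% interval of -0.67 to 0.02 and an adjusted p of 0.657 in limma (0.152 with that block). Only 2.08% of all probes had a lower value in that comparison. By RNA source the difference was -0.36 for 1 animal and -0.29 for the pool. Plau was the only one of the 5 probes that was lower in both sources, as were 19.2% of all probes. Plau was lower in both sources under each of 6 treatments of background and normalization, and the dimmer Serpine2 probe under 3 of them.

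The size of the Plau difference depended on the background of the pooled arrays. Its processed Cy5 signal was 849 for 1 animal and 40.5 for the pool in endoglin siRNA cells, against 1244 and 205 in untreated cells. In Cy3, control siRNA RNA on the same arrays gave 1151 and 79.4 beside endoglin siRNA and 1268 and 98.9 beside untreated. On the pooled arrays this is a dim spot. A few spots far below 0, 4 on the pooled endoglin siRNA array and 6 on the pooled untreated array, had pulled the fitted background there to a mean of -486.1 and -775 in Cy5 (-11.1 and -0.1 without them), which shrinks the ratios of dim probes. With the background fitted without those 10 spots, the pooled Plau ratio was -0.52 in endoglin siRNA cells, against 0.62 in untreated cells, and the groups no longer touched. The difference between endoglin siRNA and untreated cells was then -0.75 (adjusted p = 0.17), and -1.22 (adjusted p = 0.461) with the scanner software's own log ratios. The test against control siRNA then gave -0.48 (adjusted p = 0.053), where 16.8% of all probes passed; for untreated against control siRNA it gave 0.28 (adjusted p = 0.335, where 1.87% passed). No member probe passed in the 3 comparisons with that background, nor did Plau between endoglin siRNA and untreated cells, where 0.734% did. With that background 28.1% of all probes were lower in both sources.

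**Figure D2:**
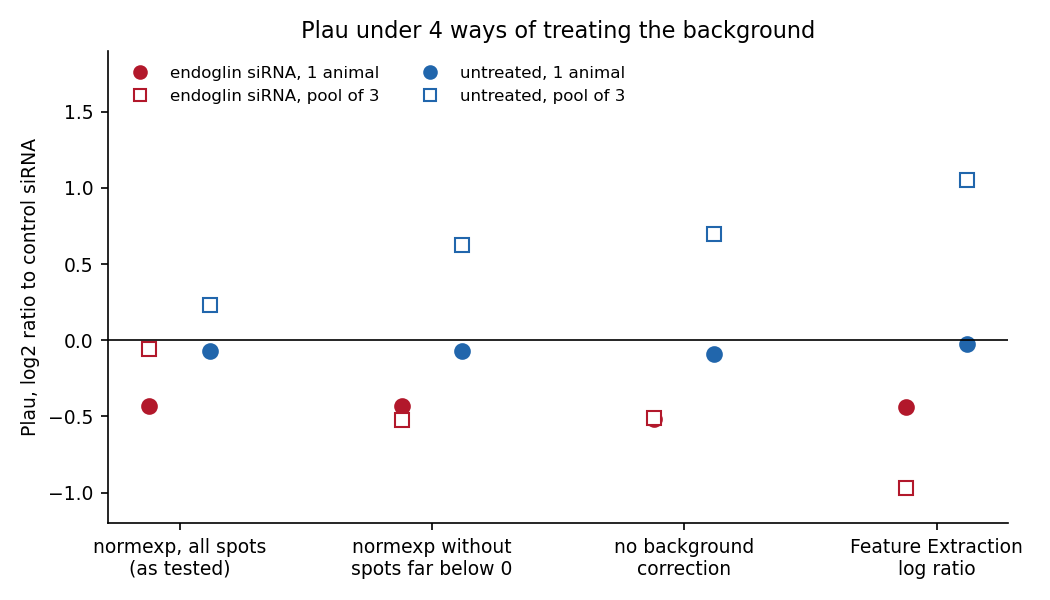
Log2 ratio of Plau to control siRNA (vertical axis) on each array under 4 treatments of the background (horizontal axis), endoglin siRNA in red left of untreated in blue, circles for 1 animal and squares for the pool of 3. The arrays of 1 animal had 0 spots far below 0, so both background fits give them the same values, -0.43 and -0.07. Without background correction these are -0.52 and -0.09. The pooled values move apart, to -0.97 in endoglin siRNA and 1.05 in untreated cells with the Feature Extraction log ratios.

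Plat, the activator best known for dissolving clots, was measured with the most spots. After loess it had the widest gap of the 5 probes between the 2 endoglin siRNA arrays, but not with scaling between arrays, where Plat was at -0.28 and 0.40 (1 animal, pool) and the brighter Serpine2 probe at 0.03 and 1.27. Its probe spans 146 bases at chr16:73717667-73717812, minus strand, in the same coordinates. Over 10 spots the log2 ratio was -0.65 ± 0.05 (SD of spots) for 1 animal and 0.12 ± 0.03 for the pool in endoglin siRNA cells. In untreated cells it was -0.16 ± 0.04 over 10 spots for 1 animal and -0.22 ± 0.05 for the pool, where 4 spots carried an outlier flag and 6 were used. The spots of the 2 endoglin siRNA arrays did not meet, the first running between -0.73 and -0.56 and the second between 0.07 and 0.17, while both untreated arrays lay between them. Spots on 1 array share their RNA, so this shows the precision of each array and not the spread between animals. The mean against control siRNA was -0.27 ± 0.15 (SE, n = 2 arrays; adjusted p = 0.369), and that of untreated cells was -0.19 ± 0.15 (adjusted p = 0.668). Endoglin siRNA and untreated cells differed by -0.07 ± 0.22, with a 95% interval of -0.58 to 0.43 and an adjusted p of 0.981 in limma; the difference was -0.49 for 1 animal and 0.34 for the pool.

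**Figure D3:**
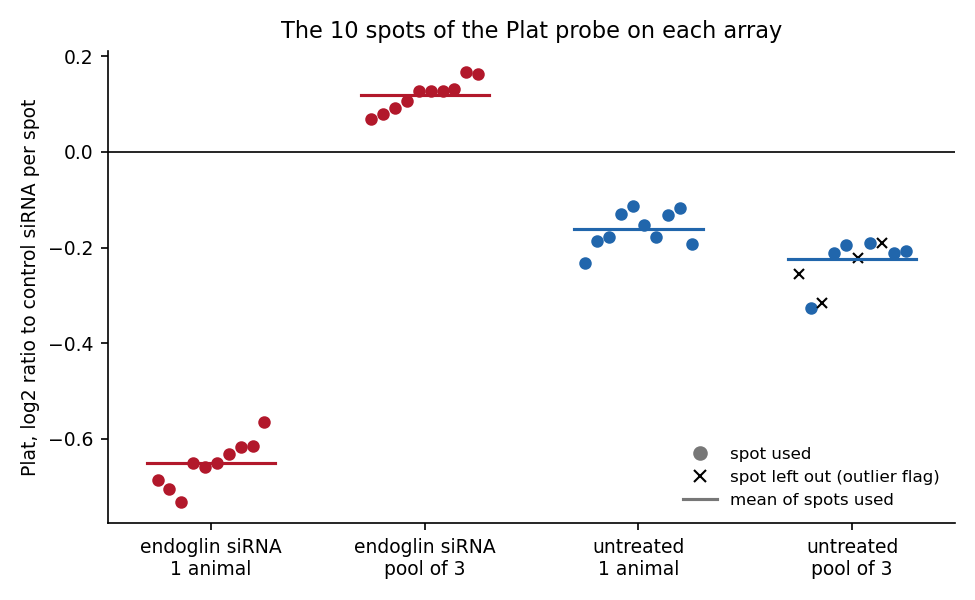
Log2 ratio to control siRNA of each of the 10 Plat spots (vertical axis) on the 4 arrays, spots of an array side by side; crosses are flagged spots that were left out and lines the mean of the spots used. The spots of the endoglin siRNA array of 1 animal lie near -0.65 and those of the pool near 0.12.

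The gap between the 2 endoglin siRNA arrays was -0.77 for Plat, 1 animal minus pool, and 0.586% of all probes had a larger one. Of the 221 probes with 10 spots, whose spots had a median SD between 0.02 and 0.06, 4 had a larger gap. The gap was -0.62 with the background fitted without the far spots, under which the pooled endoglin siRNA ratio of Plat was -0.03 and no longer positive. Without the pooled endoglin siRNA array Plat stood at -0.65 against control siRNA and passed the test (adjusted p = 0.00451), on the assumption that the remaining array varies like the untreated ones; without the array of 1 animal it stood at 0.12.

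Plaur, the receptor that concentrates urokinase at the cell surface, showed no difference past the test. The probe lies at chr1:79791146-79791205, plus strand, in the files' coordinates. Its log2 ratio was -0.39 for 1 animal and -0.04 for the pool in endoglin siRNA cells, against 0.04 and -0.21 in untreated cells. The groups overlapped, and the order within a source turned: endoglin siRNA minus untreated was -0.44 for 1 animal and 0.17 for the pool. The means against control siRNA were -0.22 ± 0.10 (SE, n = 2 arrays; adjusted p = 0.248) in endoglin siRNA cells and -0.08 ± 0.10 (adjusted p = 0.794) in untreated cells. The difference of -0.13 ± 0.14 between endoglin siRNA and untreated cells had a 95% interval of -0.46 to 0.19 and an adjusted p of 0.91 in limma. With the background fitted without the far spots, the pooled ratios were -0.21 in endoglin siRNA cells and -0.31 in untreated cells.

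Serpine2, the inhibitor that traps thrombin, urokinase and tissue plasminogen activator, had values between 0.07 and 0.38 on all arrays after loess. With scaling between arrays the pooled endoglin siRNA values of its probes were 1.27 and 1.07, and the brighter probe ran between 0.03 and 1.27. Its brighter probe (chr9:79275281-79275340, minus strand) had log2 ratios of 0.08 for 1 animal and 0.38 for the pool in endoglin siRNA cells, against 0.09 and 0.33 in untreated cells. The dimmer probe (chr9:79297474-79297533, minus strand) had 0.07 and 0.32 in endoglin siRNA cells, against 0.16 and 0.30 in untreated cells. All 8 values were positive after loess, the pooled arrays gave the higher value with each probe, and the groups overlapped. With median centring the pooled untreated values were -0.21 and -0.28 and the other 6 stayed positive. Positive ratios on both arrays were found for 41% of all probes in endoglin siRNA cells and for 28.9% in untreated cells. Against control siRNA the brighter probe was at 0.23 ± 0.09 (SE, n = 2 arrays; adjusted p = 0.194, and 0.0387 with the RNA source as a block) in endoglin siRNA and 0.21 ± 0.09 (adjusted p = 0.366) in untreated cells. The dimmer probe was at 0.19 ± 0.08 (adjusted p = 0.198) in endoglin siRNA and 0.23 ± 0.08 (adjusted p = 0.239) in untreated cells. Between endoglin siRNA and untreated cells the differences were 0.01 ± 0.13 and -0.04 ± 0.11. Their 95% intervals ran from -0.29 to 0.32 and from -0.30 to 0.22, so a difference of that size in either direction is not excluded by these arrays.

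Levels per channel differed between groups mostly by less than their SD over arrays and RNA sources. They are log2 intensities after normalization between the channels, can carry dye bias, and are compared within a probe only. The brighter Serpine2 probe stood at 14.08 ± 0.21 (SD, n = 2) in endoglin siRNA and 14.10 ± 0.16 (n = 2) in untreated cells, against 13.87 ± 0.02 (n = 4 channels) in control siRNA cells. Its Cy5 values, 13.93 to 14.23, all lay above its Cy3 values, 13.85 to 13.90; this order is also that of the dyes. Plau stood at 8.31 ± 0.75 in endoglin siRNA and 9.14 ± 1.35 in untreated cells, against 8.81 ± 1.11 in control siRNA cells. For Plat the levels were 10.93 ± 0.09, 11.11 ± 0.70 and 11.25 ± 0.53 in the same groups, and for Plaur 9.79 ± 1.12, 9.69 ± 1.02 and 9.89 ± 0.94. The dimmer Serpine2 probe was at 11.59 ± 0.21, 11.17 ± 0.61 and 11.17 ± 0.40. For Plau, Plat and Plaur no neighbouring groups differed by more than the larger of their SDs. With the dimmer Serpine2 probe, endoglin siRNA lay above control siRNA by more than either SD. The SDs take in the difference between RNA sources and leave out the pairing of Cy5 and Cy3 on an array. They therefore do not gauge a difference between groups. In control siRNA RNA the channels of 1 animal lay apart from the pooled ones for Plau, Plat and Plaur, but not for the dimmer Serpine2 probe.

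That distance was the widest difference found among the members: Plau and Plaur were far higher in RNA of 1 animal than in the pool of 3, whatever the treatment. With processed signals scaled to the 75th percentile of each channel, Plau in control siRNA RNA was at 0.67 and 1.29 on the arrays of 1 animal and at -3.15 and -2.68 on the pooled arrays. The mean difference of 3.89 (log2, 1 animal minus pool) is 14.9-fold, and 0.101% of all probes had a larger one. In the Cy5 samples Plau was at 0.25 for 1 animal and -4.09 for the pool in endoglin siRNA cells, and at 1.28 and -1.61 in untreated cells. Plaur in control siRNA RNA was at 1.59 and 1.32 for 1 animal and at -0.78 and -0.63 for the pool, a difference of 2.15 or 4.45-fold, with 0.978% of probes larger. Both genes were at least 2-fold higher on each 1-animal array than on each pooled array in control siRNA RNA, as 2.8% of all probes were. Plat differed by 1.02 (2.03-fold), with 4.63% of probes larger. The Serpine2 probes differed by 0.31 and -0.08, with 21.2% and 44.7% of probes larger, where the median over all probes was -0.16. On 3 other level scales Plau differed by 1.82 to 3.14, Plaur by 1.56 to 2.02, Plat by 0.92 to 1.03, and the Serpine2 probes by 0.01 to 0.11 and by -0.42 to -0.34.

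**Figure D4:**
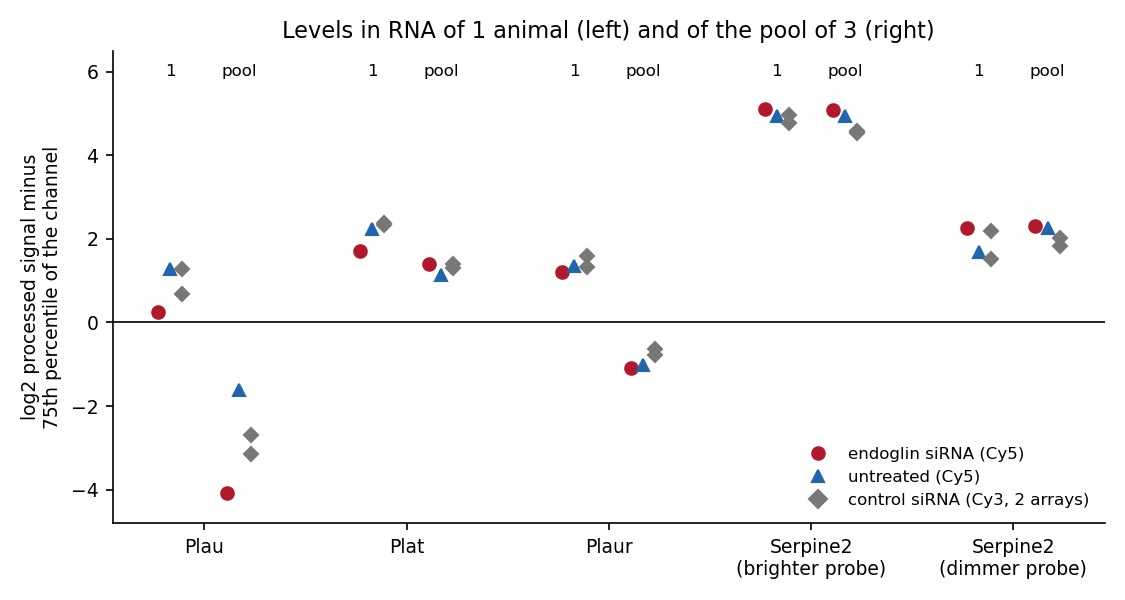
Log2 processed signal minus the 75th percentile of its channel (vertical axis) for each probe, RNA of 1 animal left of the pool of 3; circles are endoglin siRNA, triangles untreated, diamonds control siRNA cells on 2 arrays. Plau and Plaur sit lower in every pooled channel, by 3.89 and 2.15 in control siRNA RNA, while the brighter Serpine2 probe differs by 0.31; levels of different probes are not comparable.

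These differences between RNA sources are a description with no test, because the labels do not say whether the 2 control RNAs of a source were separate samples. Macrophage markers moved the same way. Their summed processed signal in control siRNA RNA was 41807 and 36154 on the 1-animal arrays, against 9028 and 8497 on the pooled arrays; 14 of 14 were higher in 1 animal, 9 of them at least 2-fold on each array, with a median of 2.83. Sums of 8 endothelial markers were 7451 and 5523 for 1 animal and 591 and 672 for the pool, with 4 of 8 higher and a median of only 0.06. Sums of 4 cholangiocyte markers were 29030 and 17998 for 1 animal and 6917 and 5958 for the pool, with 2 of 4 higher and a median of 0.4. Of 6 hepatocyte markers 0 were higher in 1 animal (median -0.79), and of 8 portal fibroblast and mesothelial markers 3 were (median -1.05). Over all 29845 probes, 11726 were higher in 1 animal, 835 of them at least 2-fold on each array, with a median of -0.16. Sums of 15 stellate cell markers were close, at 728538 and 527463 for 1 animal and 717106 and 531399 for the pool. Of these 15, 8 were higher in 1 animal, 1 of them at least 2-fold on each array, with a median of 0.04. In Cy5 the macrophage sum was 46104 for 1 animal and 10296 for the pool in endoglin siRNA cells, against 69992 and 26378 in untreated cells. Of the measured macrophage markers, Cd163 was well above background in 5, Ptprc in 6 and Vsig4 in 7 of 8 channels, and the others in all 8. The part of RNA of these other cell types in the Plau and Plaur levels was not tested.

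Around the 4 genes, 43 of 57 listed genes of the pathway were measured, and 5 passed the test in endoglin siRNA against control siRNA cells after loess, 1 higher and 4 lower, where 5.19% of all probes passed as higher and 3.09% as lower. The median log2 ratio of the 43 was -0.05, beside 0.02 over all probes. None of the 43 passed in untreated against control siRNA cells or between endoglin siRNA and untreated cells. All 5 calls, and that of Eng, ended where no probe of the array passed: with median centring, scaling between arrays or the scanner software's ratios. With the scanner software's ratios the sizes were -3.15 for A2m, -2.44 for Eng, -0.56 for Itgb3, -0.50 for Lrp1, -0.57 for Spint2 and 0.40 for Mrc2. With median centring Lrp1 (0.46), Itgb3 (0.40) and Spint2 (0.53) were positive. Itgb3 also missed the threshold with the brightest probe per gene (-0.32, adjusted p = 0.0501), where other probes passed. Of 12 measured clearance receptors and urokinase receptor partners (median -0.18), Mrc2, an endocytic collagen receptor that associates with the urokinase receptor, rose by 0.45 ± 0.09 (SE, n = 2 arrays; adjusted p = 0.0225), with 0.62 and 0.28 in endoglin siRNA cells (1 animal, pool), against 0.14 and 0.14 in untreated cells. In the same list Lrp1, the receptor that takes up activator and serpin complexes, fell by 0.37 (adjusted p = 0.0281; -0.35 and -0.40 in endoglin siRNA cells, against -0.13 and -0.39 in untreated cells). Itgb3, the beta 3 integrin subunit, fell by 0.32 (adjusted p = 0.0468; -0.46 and -0.19 in endoglin siRNA cells, against -0.31 and -0.31 in untreated cells). Without the endoglin siRNA array of 1 animal Mrc2 was at 0.28 (adjusted p = 0.133), Itgb3 at -0.19 (adjusted p = 0.371) and Lrp1 at -0.40 (adjusted p = 0.096, and 0.0775 without the pooled one), and Itgb3 also missed the threshold without either untreated array (adjusted p = 0.0895). For Lrp1 and Itgb3, untreated cells thus had ratios of like size, and the differences between endoglin siRNA and untreated cells were -0.11 and -0.01 (adjusted p = 0.898 and 0.995 in limma). For Mrc2 that difference was 0.31 and did not pass either (adjusted p = 0.566 in limma).

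Of the 3 measured genes of plasmin and its inhibitors, A2m, the broad protease inhibitor alpha-2-macroglobulin, fell by 3.12 ± 0.28 (adjusted p = 0.00326); it was at -3.79 and -2.46 in endoglin siRNA cells, against -0.31 and 0.37 in untreated cells, and the difference between those groups was -3.15 (adjusted p = 0.056). That difference lay on either side of the threshold by setting. It passed with the background fitted without the far spots (-3.06, adjusted p = 0.0177), without background correction (adjusted p = 0.026), with no filter on dim probes or the stricter one (0.0289 and 0.0452) and with the RNA source as a block (2.87e-05). It did not pass with the scanner software's ratios (-2.93, adjusted p = 0.401), the deposited ratios (0.399), median centring (-2.10, adjusted p = 0.64), scaling between arrays (-5.09, adjusted p = 0.839) or the brightest probe per gene (0.0687). Without an untreated array it missed as well (adjusted p = 0.109 without 1 animal and 0.235 without the pool). Without an endoglin siRNA array it passed (0.0124 without 1 animal and 0.000733 without the pool), on the assumption that the remaining endoglin siRNA array varies like the untreated ones. Among 9 growth factor activating proteases and their inhibitors, Spint2, an inhibitor of hepatocyte growth factor activator, fell by 0.44 (adjusted p = 0.0255), with -0.61 and -0.26 in endoglin siRNA cells, against -0.12 and -0.14 in untreated cells; without the endoglin siRNA array of 1 animal it was at -0.26 (adjusted p = 0.16), and it missed the threshold without either untreated array (adjusted p = 0.0517). Endoglin siRNA minus untreated was -0.31 for Spint2 (adjusted p = 0.585 in limma). The 4 other activator inhibitors had no member past the test. Serpina5, the protein C inhibitor, was at 0.21 against control siRNA (adjusted p = 0.301), and at 0.48 (adjusted p = 0.0175) with the background fitted without the far spots. With all spots in the background fit, Serpina5 in untreated cells was at 0.24 against control siRNA, and endoglin siRNA minus untreated was -0.03.

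In the remaining 3 lists no gene passed. The larger values among 4 plasminogen receptors were those of Eno1 (0.32, adjusted p = 0.188), a glycolytic enzyme that also binds plasminogen, and of Plgrkt, a plasminogen receptor of the cell membrane (0.27, adjusted p = 0.0559, in limma). Among 8 genes of thrombin and coagulation, F3 (tissue factor) was at -0.48 (adjusted p = 0.162) and Procr (the protein C receptor) at -0.46 (adjusted p = 0.0636; 0.0312 at -0.50 with the background fitted without the far spots). The 3 fibrin genes stayed between -0.13 and -0.01. Untreated cells were at 0.45 (Eno1), 0.21 (Plgrkt), -0.32 (F3) and -0.27 (Procr) against control siRNA. In the same order, endoglin siRNA minus untreated was -0.13, 0.06, -0.16 and -0.18.

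**Figure D5:**
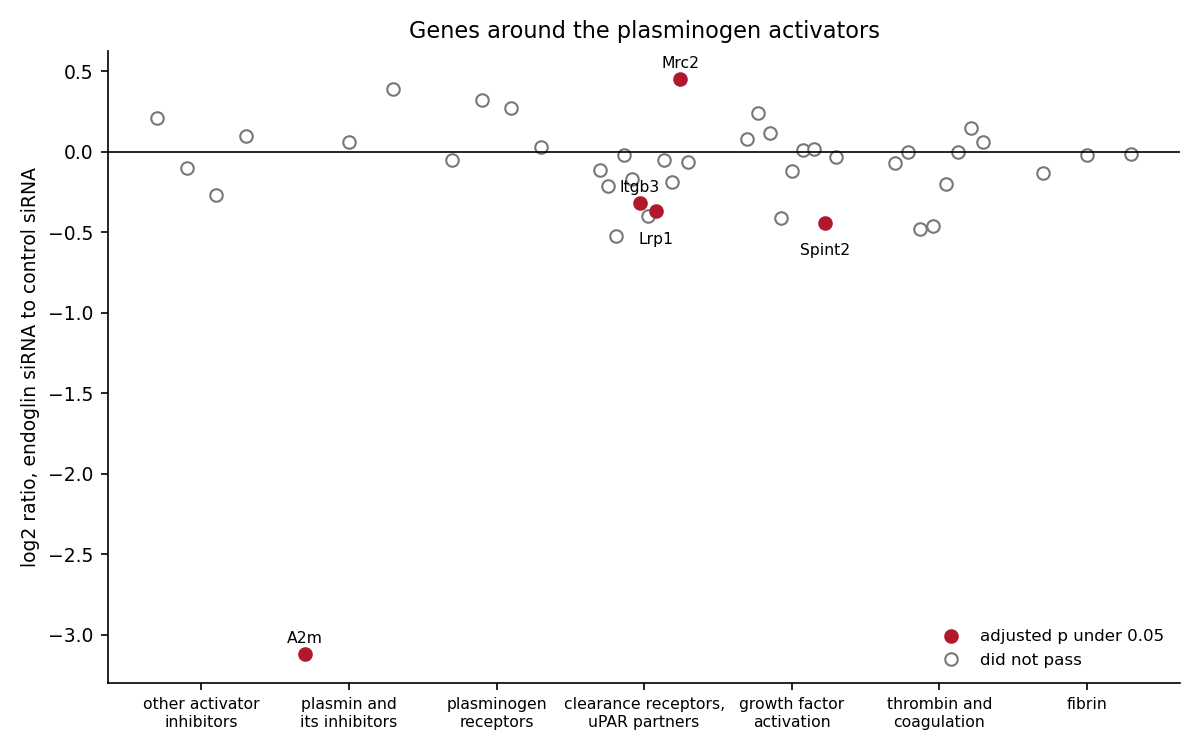
Log2 ratio of endoglin siRNA to control siRNA cells (vertical axis, mean of 2 arrays) for the 43 measured genes of 7 pathway lists (horizontal axis); filled red points passed an adjusted p of 0.05. The 5 such genes are Mrc2 at 0.45, Lrp1 at -0.37, Itgb3 at -0.32, Spint2 at -0.44 and A2m at -3.12.

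Genes whose ratios lay nearest to each member over the 4 arrays were listed by Euclidean distance in log2 units among 12054 named genes. Nearest to Plau were Pros1 (protein S, an anticoagulant cofactor and itself in the coagulation list) at 0.094, Ncam1 (a cell adhesion molecule) at 0.12 and Cald1 (the actin-binding caldesmon) at 0.13. Plat had Cd38 (an NAD-hydrolysing surface enzyme) at 0.13, Col14a1 (a fibril-associated collagen) at 0.15 and Slc1a4 (a neutral amino acid transporter) at 0.16. For Plaur they were Nr4a3 (an orphan nuclear receptor) at 0.06, Xxylt1 (a xylosyltransferase) at 0.089 and Pdpn (podoplanin) at 0.091. Serpine2 had Cggbp1 (a protein that binds CGG repeats) at 0.047, Strn3 (a striatin) at 0.059 and Fam120a (an RNA-binding protein) at 0.069. Within a distance of 0.2 lay 20 genes for Plau, 6 for Plat, 174 for Plaur and 120 for Serpine2, so many genes had ratios close to the small ones of Plaur and Serpine2. With 4 arrays these distances describe the values and carry no test.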

How the data were processed

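Total RNA of rat hepatic stellate cells was hybridized to 4 two-colour Agilent 4x44K arrays. Per the file headers, the authors read scanner intensity values with version 9.5.1.1 of Agilent Feature Extraction, whose processed signals are background-subtracted and dye-normalized and whose log ratios are log10 values, red over green. A deposited table of values also gives log10 ratios, with the sign turned on both untreated arrays (correlation -1 with Cy5 over Cy3, against 1 on the endoglin siRNA arrays); direction here follows the dyes in the labels. Mean signals were background-corrected (normexp, offset 50) and normalized by loess within arrays, controls at weight 0 and flagged spots left out. Spots of a probe were averaged. Probes well above background in a channel on at least 2 arrays were kept (29845 of 41012). They were fitted as 2 group means with limma 3.58.1 in R 4.3.3, tables read with version 1.17.8 of data.table, with 5.54 prior degrees of freedom and p-values adjusted over all of them by Benjamini-Hochberg; standard errors are moderated. Other background treatments, normalizations, probe filters, a block and leaving out each array were tried. The script was tested on simulated data. Each ratio takes in the control channel of its own array. Spread between control samples is in the p-values only if those channels held separate RNAs, which the labels leave unsaid. For levels by RNA source, processed signals were scaled to the 75th percentile. The members and lists were chosen with earlier results of these data known. Named genes are all member probes, the 3 nearest genes of each, endoglin, and from each list those past the threshold (at most 4) or else the 2 largest; 1 gene that this rule names is not reported here. The number of arrays limits the precision of every value.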

Additional observations from a re-analysis of the deposited data

How the results depend on the processing

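The count of member probes past the threshold stayed at 0 under the alternatives, except against control siRNA with the RNA source as replicate block and without the pooled endoglin siRNA array. With that block 2 probes passed in endoglin siRNA against control siRNA cells (Plau -0.24, adjusted p = 0.0292; the brighter Serpine2 probe 0.23, adjusted p = 0.0387; limma), among the pathway genes also Eno1, Plgrkt, F3 and Procr, and 4794, 1441 and 389 of all probes in endoglin siRNA against control siRNA, untreated against control siRNA, and endoglin siRNA against untreated cells. The block rests on 2 pairs by the RNA source that the labels give, 1 animal or a pool of 3; whether both arrays of a source came from the same animals is not in the labels. Deviations of the paired arrays correlated at 0.29 over probes. Leaving out each array in turn gave 0 to 1 member probes and 1118 to 3395 of all probes in the first comparison, 0 to 991 in the second and 0 to 511 in the third. In the same order of comparisons the counts were 1118, 991 and 58 without the endoglin siRNA array of 1 animal, 3395, 991 and 511 without the pooled one, 1576, 57 and 6 without the untreated array of 1 animal, and 1576, 0 and 0 without the untreated pool (2326 and 1424 at an unadjusted p under 0.05 in limma).

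In the same order, the counts over all probes were 2472, 249 and 30 as reported. They were 5570, 675 and 204 without background correction, and 5023, 557 and 219 with the background fitted without the far spots. With no filter on dim probes the last 2 were 421 and 57. Under median centring, scaling of arrays, the log ratios of the scanner software or the authors' deposited ratios they were 0, 0 and 0; at an unadjusted p under 0.05 they were then 6945, 79 and 300 with centring, 1725, 731 and 413 with scaling, 8595, 4119 and 3243 with the software's ratios, and 8593, 4120 and 3248 with the deposited ones. Median centring moved the median of all probes to 0.32, 0.01 and 0.26.

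Signs turned for members as follows, with the cause not tested. Median centring gave Plat 0.64, Plau 0.01 and Plaur 0.41 in endoglin siRNA against control siRNA, Plaur 0.09 in untreated against control siRNA, and Plat 0.73, Plaur 0.32 and the dimmer Serpine2 probe 0.89 in endoglin siRNA against untreated cells. Scaling gave Plat 0.06 in the first and Plat 0.24 and that Serpine2 probe 0.32 in the last. Median centring also turned Itgb3 (0.40), Lrp1 (0.46), Spint2 (0.53), F3 (0.53) and Procr (0.63) against control siRNA, and Itgb3 (0.61) and Lrp1 (0.69) against untreated cells. With each array left out in turn, Plat ran between -0.65 and 0.12 in the first comparison. In untreated against control siRNA, Plau ran between -0.07 and 0.23 and Plaur between -0.21 and 0.04. In endoglin siRNA against untreated cells Plat ran between -0.46 and 0.31, Plaur between -0.31 and 0.04, the brighter Serpine2 probe between -0.14 and 0.17, the dimmer one between -0.17 and 0.09, Itgb3 between -0.15 and 0.12 and Lrp1 between -0.24 and 0.02.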
